A study of Mus musculus with 40 samples.

Results

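Transcripts of 10 cytokine genes of the TNF, IL-6 and IL-12 families were followed across 40 mouse RNA-seq libraries, 4 in each of 10 groups of sorted cells. The members were Tnf, Il6, Il11, Osm, Lif, Il12a, Il12b, Il23a, Il27 and Ebi3, which are 10 of the 45706 genes in the deposited tables. They were listed by symbol, with earlier results of these data known. Myeloid groups were neutrophils and monocytes from 3 sources, namely colon tumors, blood of tumor-bearing mice and blood of healthy mice. Epithelial (EpCAM+) and stromal cells had been sorted from tumors and from healthy colon. Among CD11b+ cells negative for MHCII, Ly6G marked the neutrophils and high Ly6C the monocytes. Tumor-bearing mice carried Cdx2CreERT2 - Apc fl/fl and were given tamoxifen once at 25 mg/kg at an age of 8 to 10 weeks, which removes both copies of the tumor suppressor Apc where the Cdx2 promoter drives the inducible Cre. Their strain was written as C57Bl6/Sv followed by a number that ran from 129 to 152 over the libraries. Healthy mice were C57Bl6 with no transgene and no agent, and the labels give no age for them, so the strain, transgene and tamoxifen cannot be told apart from the tumor in comparisons with healthy mice. No neutrophils or monocytes of healthy colon were among the groups. For 4 blood libraries the titles name 2 animals each.

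Tumor necrosis factor is made by activated myeloid cells and acts through 2 receptors, Tnfrsf1a and Tnfrsf1b. The cytokines of the IL-6 family, here IL-6, IL-11, oncostatin M and LIF, signal through receptor complexes that share gp130, the product of Il6st, and activate JAK kinases and STAT3. The cytokines of the IL-12 family are pairs of an alpha and a beta chain. Il12a with Il12b makes IL-12, Il23a with Il12b makes IL-23, Il27 with Ebi3 makes IL-27, and Il12a with Ebi3 makes IL-35, so the level of 1 chain does not give the level of a cytokine. In the gut, TNF, IL-6 and IL-23 are known for their part in inflammation and in tumor growth.

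All 10 members lie on autosomes and are annotated as protein-coding (mm10, GENCODE M21), and Il27 and Ebi3 overlap other genes, Apobr and Gm16712, on the opposite strand. Since use of strand in the counting is not given in the sources used here, the values of Il27 and Ebi3 are uncertain to that extent. Levels are given in RPKM, reads scaled by transcript length and by mapped reads. Fold changes come from counts by edgeR's quasi-likelihood test, and a call needed an adjusted p-value (Benjamini-Hochberg, over all genes tested) under 0.05 together with an absolute log2 fold change above 1.5. In bulk RNA a smaller share of expressing cells and less RNA per cell cannot be told apart.

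The libraries held between 10716847 and 38002110 counts on genes, and mitochondrial genes took 5.34% to 83.9% of them. This share differed by group, at 46.3% to 83.9% in epithelial libraries and 5.34% to 16.8% in blood neutrophils. It was 55.4% and 62.9% in tumor stromal libraries T17CN and T18CN and 15.6% to 24.9% in healthy stromal cells. RPKM is scaled by mapped reads, so a high share can lower the RPKM of other genes, and this was not corrected. Markers of neutrophils, monocytes and epithelial cells had their highest group means in the groups sorted for them, and the tumor stromal group stood apart. There the 8 fibroblast markers, collagens, Dcn and Pdgfra among them, summed to 6.07 to 24.7 RPKM, against 369 to 2027 RPKM in healthy stromal cells. Of the tumor stromal libraries, T17CN and T18CN had epithelial marker sums of 214.8 and 125.8 RPKM, beside 141 to 341 RPKM in sorted tumor epithelial cells, and T1CN and T2CN had neutrophil marker sums of 1570 and 532 RPKM. Epithelial marker sums were 46.99 and 25.05 RPKM in T1CN and T2CN, against 0.855 to 18.3 RPKM in healthy stromal cells. The labels give T1CN and T2CN the same replicate number, 3, and they were kept as 2 libraries because their values differ. The label "stromal" stands in the text for cells sorted as negative for EpCAM and CD45. Tumor neutrophil replicate 1 had an epithelial marker sum of 143.7 RPKM, against 11.6 to 33.7 RPKM in the other tumor neutrophil libraries. Its neutrophil marker sum was 1927 RPKM, against 6035 to 12470 RPKM, with Ly6g at 1.18 RPKM against 9.65 to 12.6 RPKM. Its macrophage marker sum was 11.8 RPKM, against 3.14 to 4.79 RPKM. Immediate early and heat shock genes known to respond to tissue dissociation summed to 126 to 339 RPKM in tumor monocytes and 46.5 to 163 RPKM in blood monocytes of tumor-bearing animals, and to 196 to 380 against 60.3 to 140.9 RPKM in neutrophils. Tumor cells had been freed with enzymes and blood cells had not, so handling and tissue cannot be told apart.

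**Figure D1:**
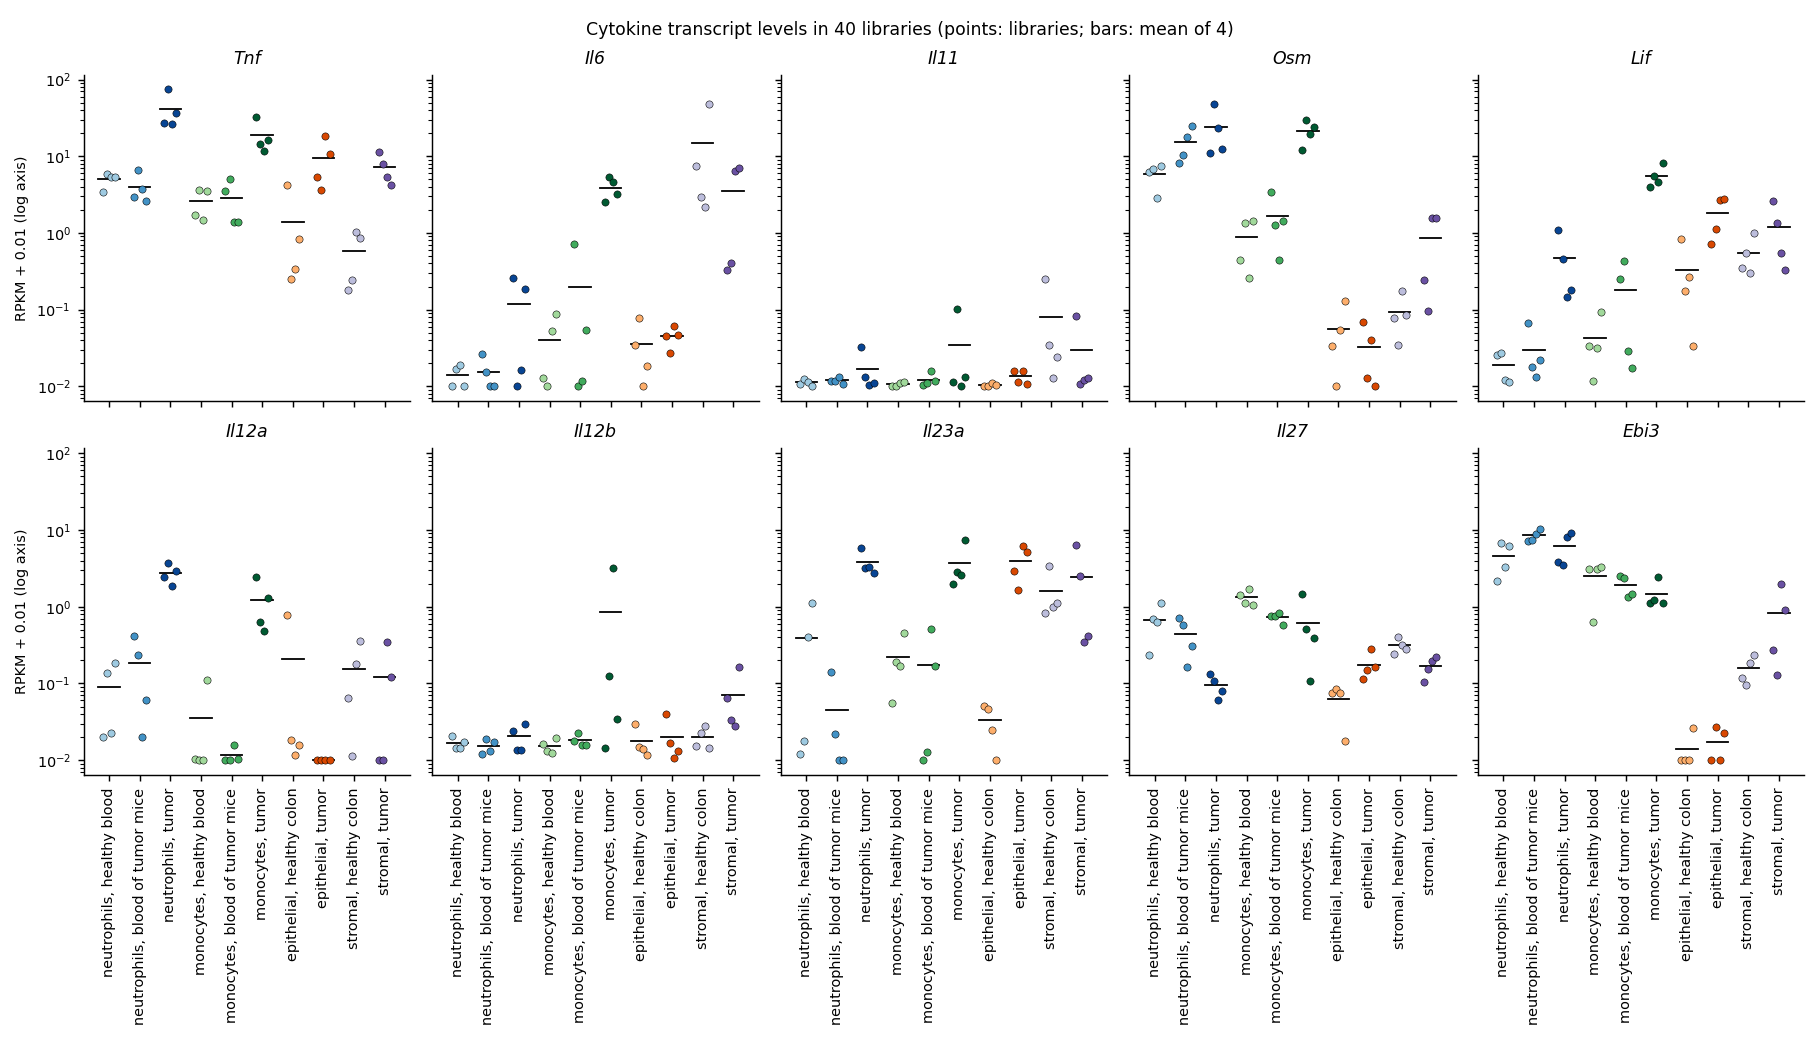
Levels of the 10 cytokines in RPKM + 0.01 on a log axis, with a point for each of 40 libraries and a bar for the mean of 4 libraries in each group. The highest group means are those of Tnf in tumor neutrophils (40.96 RPKM) and of Osm in tumor neutrophils (23.8 RPKM) and tumor monocytes (21.4 RPKM), and Il11 stays under 0.25 RPKM in every library.

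Per length, Tnf and Osm were the most abundant members. Tnf had its highest mean in tumor neutrophils and was found in each of the 10 groups, down to 0.566 ± 0.428 RPKM (SD, n = 4) in healthy stromal cells, and in its order of group means every pair of neighboring groups overlapped. Osm was confined largely to myeloid cells, with means of 23.8 RPKM in tumor neutrophils, 21.4 in tumor monocytes and 15.3 in tumor-bearing mice's blood neutrophils, which overlapped, and it was separated from 5.82 ± 2.04 RPKM in neutrophils of healthy blood. In epithelial cells its highest library reached 0.118 RPKM.

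Lif was highest in tumor monocytes, whose 4 libraries lay above all other libraries, and Il6 was highest in healthy stromal cells, followed by tumor monocytes and tumor stromal cells, which overlapped. Il12a was highest in tumor neutrophils and next in tumor monocytes. Il23a had means of 3.99 RPKM in tumor epithelial cells, 3.77 in tumor neutrophils, 3.72 in tumor monocytes and 2.42 in tumor stromal cells, groups that did not separate. Il27 was highest in monocytes of healthy blood, at 1.32 ± 0.304 RPKM, above every library of blood monocytes of tumor-bearing mice, and Ebi3 was highest in blood neutrophils of tumor-bearing mice, at 8.48 ± 1.48 RPKM. Il11 had at most 31.9 counts in a library, in 1 healthy stromal library, and did not pass the filter on low counts in any comparison.

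The comparison of tumor with blood monocytes asks what the cells express once they are in the tumor. Of the 10 members, 6 rose and none fell. Lif, Il12a, Osm and Tnf were called in each of the 14 alternatives run, and Il6 and Il23a lost the call when single libraries were left out. Ebi3 and Il27 were tested and not called, and Il11 and Il12b were not tested. Genes higher in tumor were 7.76% of those tested, and called genes of either direction 11.7%. Il6, Lif, Il12a and Il23a had too few counts in blood monocytes of tumor-bearing mice to pass the filter from that group alone. These members passed through the tumor libraries and could hardly have been called lower. Epithelial marker sums were 1.47 to 29.4 RPKM in tumor monocytes and 0.307 to 0.65 RPKM in blood monocytes of tumor-bearing mice, and tumor epithelial cells expressed Tnf, Lif and Il23a. The part of these transcripts in the result was not tested.

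Tnf was at 32.01, 14.6, 11.6 and 16.3 RPKM in the tumor monocyte libraries and at 3.52, 4.99, 1.36 and 1.37 RPKM in blood monocytes of tumor-bearing mice. No blood library reached the lowest tumor library, and Tnf rose by 3.00 on the log2 scale (standard error 0.51, adjusted p = 0.00267). Within the IL-6 family, Lif, which is known for keeping stem cells undifferentiated, stood at 3.96, 5.57, 4.58 and 8.17 RPKM in tumor and 0.241, 0.417, 0.0186 and 0.00755 RPKM in blood. Its groups did not overlap, and it rose by 5.26 on the log2 scale (standard error 0.95, adjusted p = 0.00399). Osm, a cytokine that acts on stromal and epithelial cells through Osmr, was at 11.9, 29.8, 19.7 and 24.3 RPKM in tumor and 3.42, 1.27, 0.437 and 1.43 RPKM in blood, which gave an increase of 3.97 on the log2 scale (standard error 0.54, adjusted p = 7.9e-04). Tumor libraries were all above the blood libraries here too.

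Il6, the gene of the cytokine that induces the acute phase response, was found at 2.49, 5.29, 4.62 and 3.20 RPKM in tumor monocytes and at 0.712, 0, 0.00171 and 0.0448 RPKM in blood monocytes. The groups did not overlap and the blood libraries were themselves spread, with 123.5 expected counts in replicate 1 and at most 5.97 in the others. Il6 rose by 4.67 on the log2 scale (standard error 1.29, adjusted p = 0.0316), and the call was lost without tumor monocyte replicate 2, 3 or 4 or blood monocyte replicate 4, where the highest adjusted p was 0.0806. The increase ran from 4.25 to 8.21 over its 14 alternatives, the highest without blood monocyte replicate 1.

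Among the IL-12 family chains, Il12a was at 2.45, 0.616, 0.470 and 1.28 RPKM in tumor monocytes. The blood monocyte libraries of tumor-bearing animals held 1 count of Il12a in all, against 497 in tumor, a ratio of counts per total of 436 (exact 95% interval 77.9 to 17254, counting error only). The edgeR test called Il12a at an adjusted p of 5.4e-04. Il23a, the chain particular to IL-23, stood at 1.98, 2.83, 2.57 and 7.50 RPKM in tumor and at 0, 0.00279, 0.496 and 0.159 RPKM in blood, with no overlap, and rose by 4.72 on the log2 scale (standard error 1.24, adjusted p = 0.025, range of the increase 4.18 to 6.85 over 14 alternatives). The Il23a call was lost without tumor monocyte replicate 4 or blood monocyte replicate 4, with adjusted p up to 0.0694.

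Il12b, whose product pairs with both of those chains, was at 0.00438, 0.117, 3.22 and 0.0246 RPKM in tumor monocytes. The 3.22 RPKM belonged to replicate 3 (361.5 expected counts), and outside tumor monocytes no library went above 0.151 RPKM. Summed markers of dendritic cells, which are known to make IL-12, were 0.702 RPKM in that library and 1.53 to 3.62 RPKM in the other tumor monocyte libraries. B cell markers summed to 3.05 RPKM in that library, with 3 of the 4 genes at a rounded count of 0. In the other tumor monocyte libraries they summed to 0.0406 to 0.345 RPKM. The part of other cell types in the Il12b value was not tested. Ebi3 and Il27 had tumor values of 1.46 ± 0.637 and 0.603 ± 0.580 RPKM against 1.92 ± 0.625 and 0.721 ± 0.102 RPKM in blood. Their groups overlapped, with adjusted p of 0.919 and 0.999, and their fitted differences, -0.10 and -0.0025 on the log2 scale, turned sign under some alternatives.

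**Figure D2:**
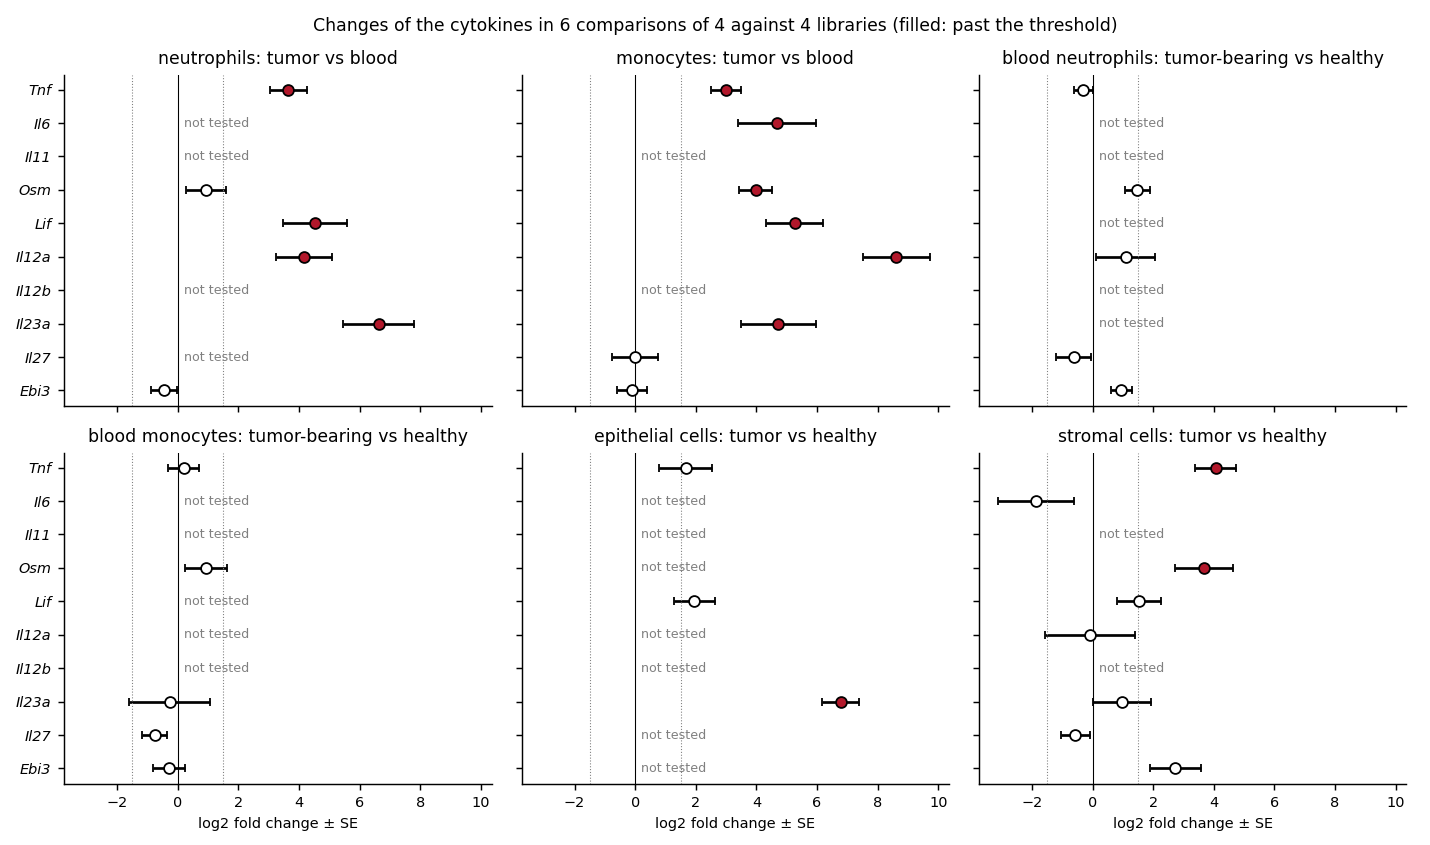
Log2 fold change with its standard error (bars) for each member in 6 comparisons of 4 against 4 libraries, where filled points are called and dotted lines mark 1.5 on either side of 0. In monocytes 6 members and in neutrophils 4 members are called, all to the right of 0, and no member is called in either comparison of blood.

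RefSeq promoter sequences (GRCm38.p6) were at hand for 7 of the 10 members, Tnf, Il6, Il11, Lif, Il12a, Il12b and Ebi3. The 250 bases before the start are shown for Il6 and Lif, which rose together in tumor monocytes, for Tnf, and for Ebi3, which was not called there. Capitals mark matches to the kB motif, the sequence family bound by NF-kB, and to TGANTCA, bound by AP-1, searched on both strands.
Tnf, chr17:35202008-35202257, minus strand: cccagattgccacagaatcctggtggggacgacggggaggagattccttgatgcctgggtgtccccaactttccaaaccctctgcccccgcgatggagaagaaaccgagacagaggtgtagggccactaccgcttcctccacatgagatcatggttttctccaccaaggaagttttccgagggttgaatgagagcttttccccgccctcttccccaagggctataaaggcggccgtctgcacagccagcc
Il6, chr5:30012864-30013113, plus strand: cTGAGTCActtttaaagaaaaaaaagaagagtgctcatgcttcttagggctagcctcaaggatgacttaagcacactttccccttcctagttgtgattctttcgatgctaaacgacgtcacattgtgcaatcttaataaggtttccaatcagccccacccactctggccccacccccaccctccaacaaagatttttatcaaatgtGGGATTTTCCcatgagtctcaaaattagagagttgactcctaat
Lif, chr11:4257318-4257567, plus strand: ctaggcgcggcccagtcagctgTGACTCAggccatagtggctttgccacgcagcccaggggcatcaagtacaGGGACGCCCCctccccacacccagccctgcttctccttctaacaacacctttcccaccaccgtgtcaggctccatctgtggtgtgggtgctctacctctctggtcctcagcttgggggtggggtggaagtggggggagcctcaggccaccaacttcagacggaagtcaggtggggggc
Ebi3, chr17:55952373-55952622, plus strand: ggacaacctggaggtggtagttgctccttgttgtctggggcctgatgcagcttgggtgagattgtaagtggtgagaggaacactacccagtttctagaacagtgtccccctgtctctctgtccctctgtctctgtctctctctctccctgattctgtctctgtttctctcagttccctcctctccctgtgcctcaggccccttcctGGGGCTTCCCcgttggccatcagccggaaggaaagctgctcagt
The Il6 and Ebi3 windows each held a kB match that began at -44 from the start, and the Lif window held one at -178. The windows of Il6 and Lif also held TGANTCA. An Il11 window held TGANTCA without a kB match, and another Il11 window held neither. Il11 did not pass the filter in any comparison. The Tnf window held neither, nor did the windows of Il12a and Il12b. Of 32851 promoter windows of this length, 7.25% held the kB motif and 6.75% TGANTCA. A match in a window is a description and says nothing of binding, and kB matches occurred both in members that rose and in Ebi3.

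In neutrophils, Tnf, Lif, Il12a and Il23a rose from the blood of tumor-bearing mice to the tumor. Osm and Ebi3, both abundant in blood neutrophils already, were not called, and Il6, Il11, Il12b and Il27 did not pass the filter. Genes called higher in tumor were 11.9% and called genes of either direction 16.3% of those tested. Lif, Il12a and Il23a had too few counts in these blood neutrophils to pass the filter from that group alone, and could hardly have been called lower. All 4 tumor neutrophil libraries had more epithelial marker transcripts than the blood neutrophils, with sums of 11.6 to 143.7 RPKM against 0.0976 to 0.205 RPKM, and their part in the result was not tested. The comparison shares no library with that of monocytes. The title numbers, which may stand for animals, recur between them, 3 of them in both tumor groups and 3 in both blood groups.

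Tnf was at 27.0, 74.3, 26.0 and 36.6 RPKM in tumor neutrophils and at 2.96, 6.64, 3.72 and 2.63 RPKM in blood neutrophils. Tumor values were all above the blood values, and Tnf rose by 3.64 on the log2 scale (standard error 0.61, adjusted p = 0.00278). Il12a stood at 2.46, 3.68, 1.83 and 2.91 RPKM in tumor and 0.408, 0.222, 0.01005 and 0.0510 RPKM in blood, without overlap, an increase of 4.17 on the log2 scale (standard error 0.93, adjusted p = 0.0119). The largest change was that of Il23a, with 5.82, 3.16, 3.32 and 2.78 RPKM in tumor against 0.131, 0.0116, 0 and 0 RPKM in blood, or 6.63 on the log2 scale (standard error 1.17, adjusted p = 0.00363).

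Lif was low in tumor neutrophils, at 1.07, 0.453, 0.137 and 0.171 RPKM, and lower in blood, at 0.0561, 0.00799, 0.00321 and 0.0118 RPKM. It rose by 4.51 on the log2 scale (standard error 1.06, adjusted p = 0.0147), and the call was lost without blood neutrophil replicate 2 or 4, with adjusted p up to 0.0541. Both Lif and Il23a were highest in tumor neutrophil replicate 1, the library with the most epithelial marker transcripts, and tumor epithelial cells expressed both. Without it, Il23a rose by 6.54 (adjusted p = 0.0104) and Lif by 4.04 (adjusted p = 0.0335) on the log2 scale. Il12a was at 0 in all 4 tumor epithelial libraries. The other tumor neutrophil libraries also held epithelial marker transcripts, with sums of 11.6 to 33.7 RPKM. The part of epithelial transcripts in these changes was not tested.

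Osm was at 11.1, 48.5, 23.4 and 12.3 RPKM in tumor neutrophils and 8.04, 10.4, 17.8 and 25.0 RPKM in blood neutrophils of tumor-bearing animals. The groups overlapped, and the log2 difference of 0.93 (standard error 0.67) had an adjusted p of 0.37. It turned to -0.15 without tumor neutrophil replicate 2. Ebi3 stood at 6.13 ± 2.91 RPKM in tumor and 8.48 ± 1.48 RPKM in blood (adjusted p = 0.504). Il27 was at 0.05005 to 0.125 RPKM in tumor neutrophils, below each of the blood neutrophil libraries at 0.156 to 0.704 RPKM, and was not tested.

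An interaction over 16 libraries tested if monocytes and neutrophils changed by different amounts between blood and tumor. No member was called, beside 3.95% of all genes tested. At an unadjusted p under 0.05 there were 3 of the 8 members tested, and DESeq2 called 2 and limma-voom 1. Osm had the lowest adjusted p, 0.0571, with a change larger in monocytes by 3.16 on the log2 scale (standard error 0.91), and it passed the threshold in DESeq2 (adjusted p = 0.024), limma-voom (0.0385) and without tumor neutrophil replicate 2 (0.00552) or blood monocyte replicate 1 (0.0442). Il12a was larger in monocytes by 4.49 (standard error 1.41, adjusted p = 0.0787) and passed in DESeq2 (0.0234) and without tumor neutrophil replicate 2 (0.0449). For Tnf and Lif the differences, -0.53 ± 0.78 and 0.94 ± 1.36 (standard error), were within their error, and a miss of the threshold does not show that the cell types changed alike. With the title number as a block, a fit added after seeing the data, no member was called either, and Osm had an adjusted p of 0.225.

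In blood, tumor-bearing and healthy mice were compared to see whether circulating cells already differ. No member was called in neutrophils or in monocytes by edgeR, DESeq2 or limma-voom, beside 4.01% of all genes tested in neutrophils and 0.209% in monocytes. At an unadjusted p under 0.05 there were 2 of 5 members tested in neutrophils and 0 of 5 in monocytes. Osm in blood neutrophils came nearest, at 8.04, 10.4, 17.8 and 25.0 RPKM in tumor-bearing and 6.14, 6.87, 2.87 and 7.41 RPKM in healthy mice. Those libraries did not overlap, with a log2 difference of 1.48 (standard error 0.40, adjusted p = 0.0564), which passed without blood neutrophil replicate 1 of the tumor-bearing mice (1.71, adjusted p = 0.0458). DESeq2 gave Osm an adjusted p of 0.00693 at a log2 difference of 1.48, under the fold threshold. Ebi3 was at 7.25 to 10.4 RPKM in blood neutrophils of tumor-bearing and 2.12 to 6.77 RPKM in those of healthy mice, a difference of 0.94 (standard error 0.35, adjusted p = 0.144). Tnf did not differ beyond the spread in either cell type, at 3.99 ± 1.83 against 4.97 ± 1.06 RPKM in neutrophils and 2.81 ± 1.77 against 2.58 ± 1.15 RPKM in monocytes. In blood monocytes Il27 was at 0.575 to 0.814 RPKM in tumor-bearing and 1.05 to 1.71 RPKM in healthy mice, which did not overlap in RPKM, and edgeR gave a log2 difference of -0.76 (standard error 0.42, adjusted p = 0.585).

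The 4 cell types sorted from tumors were compared in 1 fit of their 16 libraries. Neutrophils had the most Tnf and Ebi3, monocytes the most Lif, and Osm and Il12a were shared by both, while Il23a was called in none of the 6 contrasts. The titles of the 16 libraries carry 7 numbers, which were read as animal numbers although the labels do not say so. A fit with that number as a block, called the animal block, is given where it changed the calls. In the fit of 16 libraries, Osm, Il6, Il12a, Il27 and Ebi3 had too few counts in epithelial cells to pass the filter from that group alone. The same held for Il6 and Il27 in neutrophils and for Il12a and Il27 in stromal cells. These members passed through other groups, and could hardly have been called higher in the group with few counts.

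**Figure D3:**
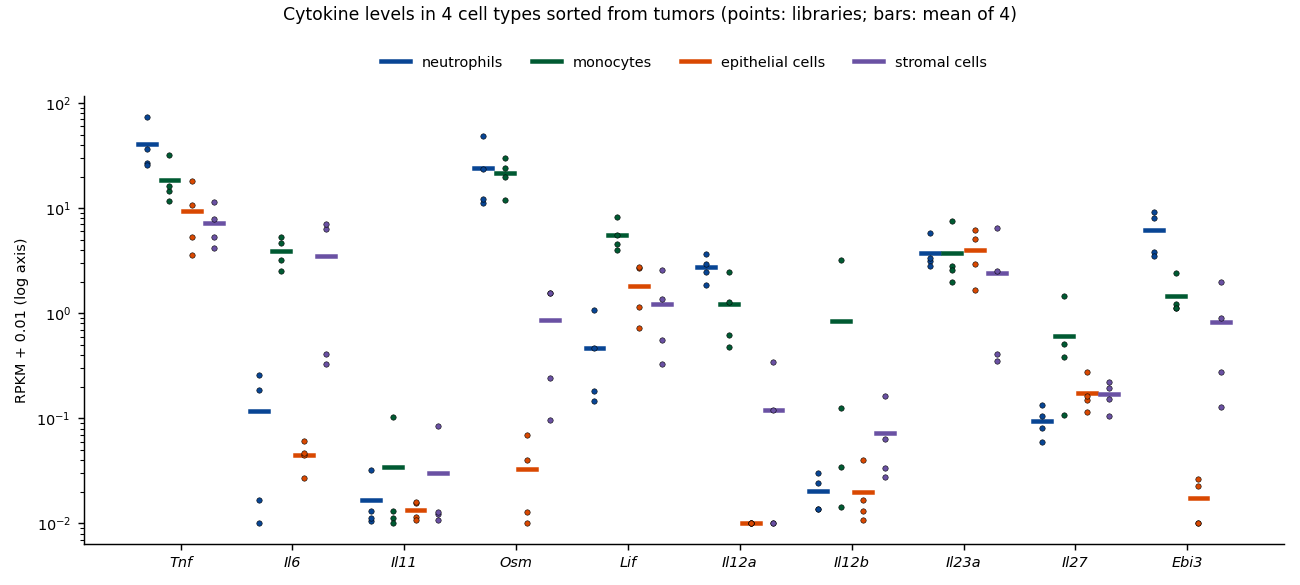
Levels of the 10 cytokines in RPKM + 0.01 on a log axis in the 4 cell types sorted from tumors, with a point for each library and a bar for the mean of 4. Tumor monocytes lie above the other types for Lif, epithelial cells are at or near the bottom for Osm, Il12a and Ebi3, and the 4 types overlap for Il23a.

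Between tumor monocytes and tumor neutrophils 5 members were called, beside 13.8% of all genes tested. Il6 was higher in monocytes by 4.77 on the log2 scale (standard error 1.15, adjusted p = 0.0122), with 2.49 to 5.29 RPKM against 0 to 0.251 RPKM in neutrophils. Lif was higher by 3.11 (standard error 0.68, adjusted p = 0.00743). Il27 was higher by 2.26 (standard error 0.74, adjusted p = 0.0496), a call lost in 21 of its 24 alternatives, where the adjusted p reached 0.367. Ebi3 was lower in monocytes by -2.72 (standard error 0.78, adjusted p = 0.0272), with 1.10 to 2.41 against 3.503 to 9.21 RPKM, and Tnf was lower by -1.92 (standard error 0.55, adjusted p = 0.0266), with ranges that overlapped. The Tnf call was lost without tumor monocyte replicate 2, 3 or 4 or tumor neutrophil replicate 2 (adjusted p up to 0.208), and the Ebi3 call without tumor monocyte replicate 1, 2 or 4 or tumor neutrophil replicate 3 or 4 (up to 0.0768). With the animal block, 2 were called, Il6 (adjusted p = 0.0231) and Tnf (0.026), while Lif (0.0647), Ebi3 (0.152) and Il27 (0.367) were not. Osm was at 11.9 to 29.8 RPKM in monocytes and 11.1 to 48.5 RPKM in neutrophils, a difference of -1.02 with a standard error of 0.86.

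Against tumor epithelial cells the myeloid cells stood out by Osm, Il12a and Ebi3, which were at or near 0 in the epithelium. In monocytes 6 members were higher, Osm, Il12a, Ebi3, Il6, Lif and Il27, beside 29% of all genes tested in either direction. In neutrophils 4 were higher, Osm, Il12a, Ebi3 and Tnf, beside 21.6%. Tumor epithelial libraries had no count of Il12a, so the fold is a bound, at least 62.7 in monocytes and at least 147 in neutrophils against a floor of 3 counts in each library. They held 2 counts of Ebi3 in all, which gave a ratio of 248.9 (exact 95% interval 68.4 to 2064) for monocytes and 1068 (295 to 8830) for neutrophils, intervals of counting error only. Osm was at 0.0591, 0.00296, 0.0298 and 0 RPKM in the epithelium, lower than in neutrophils by 11.11 on the log2 scale (standard error 1.35, adjusted p = 2.1e-05). Il6 in monocytes exceeded the epithelium, at 0.0170 to 0.0507 RPKM, by 6.94 (standard error 1.27, adjusted p = 8.5e-04). The animal block kept 4 calls in monocytes and lost Lif (adjusted p = 0.235) and Il27 (0.39), and in neutrophils all 4 stayed. Without single libraries, Lif in monocytes lost its call for tumor monocyte replicate 2, 3 or 4 and tumor epithelial replicate 1, 2 or 3 (adjusted p up to 0.0979), and Il27 for tumor monocyte replicate 1 or any tumor epithelial replicate (up to 0.215).

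Against tumor stromal cells, 5 members were higher in monocytes (Osm, Lif, Il12a, Il27 and Tnf, beside 20.3% of genes), and in neutrophils 4 were higher (Osm, Il12a, Ebi3 and Tnf) and Il6 was lower (beside 16.1%). Osm was higher in monocytes by 4.94 (standard error 1.01, adjusted p = 0.0035) and in neutrophils by 5.96 (standard error 1.06, adjusted p = 0.00119) on the log2 scale. Il6 in neutrophils was lower by -4.33 (standard error 1.123, adjusted p = 0.0129), a call that rested on stromal libraries T1CN and T2CN (adjusted p = 0.422 without them). In monocytes the calls of Osm and Lif held when any single library was left out, but Lif lost its call without T1CN and T2CN (1.67, adjusted p = 0.0968), where Osm kept it. Tnf (1.62, standard error 0.54, adjusted p = 0.0404) lost its call in 6 of those fits, without tumor monocyte replicate 1 or 4, tumor epithelial replicate 4, T18CN, T1CN or T2CN (adjusted p up to 0.14). Il12a (3.73, standard error 1.16, adjusted p = 0.0344) lost it without tumor monocyte replicate 1 or 4, T17CN, T18CN or T2CN (up to 0.0878), and Il27 (2.15, standard error 0.72, adjusted p = 0.0416) without any of 10 libraries, which were tumor monocyte replicates 1 and 2 and all epithelial and stromal libraries (up to 0.236). With the animal block none of these was called in either contrast, with adjusted p of 0.109 for Osm in monocytes and 0.0598 for Tnf in neutrophils. The monocyte and the neutrophil libraries each shared 1 title number with the stromal libraries.

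Tumor stromal cells exceeded tumor epithelial cells for Il6, Osm and Ebi3, beside 4.09% of genes. The differences were 6.498 (standard error 1.25, adjusted p = 0.00877) for Il6, 5.16 (standard error 1.11, adjusted p = 0.014) for Osm and 6.32 (standard error 1.04, adjusted p = 0.00414) for Ebi3. Osm lost its call without tumor epithelial replicate 2, 3 or 4 (adjusted p up to 0.0553). No call was left without T1CN and T2CN, the libraries with the most neutrophil marker transcripts, where the adjusted p was 0.516, 0.843 and 0.0836 in the same order, and without T17CN and T18CN there were 5.

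The comparison of tumor with healthy epithelial cells asks what the epithelium expresses after the loss of Apc. Il23a was the member called, and it rose from near 0 in healthy colon. With so few counts there, it passed the filter through the tumor libraries and could hardly have been called lower. Lif and Tnf were tested and not called, and the other members did not pass the filter. Called genes higher in tumor were 7.52% and called genes of either direction 15.4% of those tested.

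Il23a was at 2.95, 1.65, 6.23 and 5.11 RPKM in tumor epithelial cells and 0.0400, 0.0367, 0.0147 and 0 RPKM in healthy epithelial cells. All tumor libraries held 137.5 expected counts or more and the healthy ones at most 3.62, and Il23a rose by 6.78 on the log2 scale (standard error 0.61, adjusted p = 5.6e-05), called in each of the 14 alternatives. The myeloid marker sums of tumor epithelial libraries were 0.954 to 4.56 RPKM for neutrophils and 0.359 to 2.36 RPKM for monocytes. In the sorted tumor cells they were 1927 to 12470 and 165 to 258 RPKM. The part of myeloid transcripts in the result was not tested. Dissociation genes summed to 360 to 701 RPKM in tumor and 58.7 to 348 RPKM in healthy epithelial libraries, and their part in the result was not tested.

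Lif stood at 0.712, 1.13, 2.71 and 2.73 RPKM in tumor and 0.818, 0.165, 0.260 and 0.0233 RPKM in healthy epithelium. The difference of 1.95 on the log2 scale (standard error 0.68, adjusted p = 0.066) passed in DESeq2 (0.0127), in limma-voom (0.0119) and without healthy epithelial replicate 1 (0.00167), the healthy library in which Lif, Tnf, Il12a and the dissociation genes were all highest. Tnf was at 5.35, 3.60, 18.3 and 10.7 RPKM in tumor and 4.18, 0.241, 0.328 and 0.827 RPKM in healthy epithelium, overlapping groups with a difference of 1.66 (standard error 0.88, adjusted p = 0.215), called in limma-voom alone (adjusted p = 0.0157). Il12a was at 0 in tumor and at 0.779, 0.00812, 0.00184 and 0.00598 RPKM in healthy epithelium, where 73 of 75 counts came from replicate 1.

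Tumor and healthy stromal cells were compared next, with the reservation that fibroblast markers nearly vanished in the tumor group. Tnf and Osm were called higher in tumor, and no member was called lower. Osm and Ebi3 had too few counts in healthy stromal cells to pass the filter from that group alone, and could hardly have been called lower. Called genes higher in tumor were 3.39% and called genes of either direction 8.4% of those tested.

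Tnf was at 11.4, 7.82, 5.35 and 4.19 RPKM in tumor stromal cells and 0.172, 0.230, 1.02 and 0.845 RPKM in healthy stromal cells, without overlap. Tnf rose by 4.06 on the log2 scale (standard error 0.68, adjusted p = 0.00974) and was called in all 16 alternatives, among them the fit without T17CN and T18CN (adjusted p = 0.0337) and the fit without T1CN and T2CN (adjusted p = 0.0049). Each of these fits kept the other pair, with the epithelial or neutrophil marker sums given above. Tumor epithelial cells and tumor neutrophils also expressed Tnf, at means of 9.47 and 40.96 RPKM. The part of those cells in the Tnf result was not tested. Osm stood at 0.231, 0.0874, 1.54 and 1.54 RPKM in tumor and 0.0690, 0.0246, 0.163 and 0.0759 RPKM in healthy stromal cells. The highest were T1CN and T2CN, and the increase of 3.68 on the log2 scale (standard error 0.96, adjusted p = 0.0458) became 1.35 (adjusted p = 0.255) without them. The call of Osm was also lost when T1CN, T2CN or any of the 4 healthy libraries was left out (adjusted p up to 0.128). Ebi3 had the same order, at 0.264, 0.118, 1.98 and 0.890 RPKM in tumor against 0.0863 to 0.223 RPKM, with a difference of 2.73 (standard error 0.83, adjusted p = 0.0751), which passed in DESeq2 (0.00694), in the fit of all 40 libraries (0.00565) and without T17CN and T18CN (0.02). Osm and Ebi3 are abundant in neutrophils, whose markers were highest in these 2 libraries, and that part in the result was not tested.

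Il6 was the most variable member in stroma, at 7.39, 2.97, 2.14 and 47.6 RPKM in healthy and 0.316, 0.399, 6.31 and 6.997 RPKM in tumor libraries. The log2 difference of -1.85 (standard error 1.25, adjusted p = 0.401) turned to 0.06 without healthy stromal replicate 4, the library with 47.6 RPKM, and was -4.95 (adjusted p = 0.057) without T1CN and T2CN. That healthy library also had the highest sums of fibroblast markers, 2027 RPKM, and of dissociation genes, 1880 RPKM against 810 to 1155 RPKM in the other healthy libraries, and their part in its level was not tested. In tumor stromal libraries the dissociation genes summed to 393.5 to 568.7 RPKM, below every healthy stromal library. Their part in the comparison of tumor with healthy stroma was not tested. Endothelial marker sums were 104 and 113 RPKM in T1CN and T2CN and 4.35 and 3.71 RPKM in T17CN and T18CN. In the opposite order, Lif was at 2.59, 1.35, 0.545 and 0.319 RPKM and Il23a at 6.42, 2.52, 0.337 and 0.399 RPKM in tumor stromal cells, highest in T17CN and T18CN, the libraries with the most epithelial marker transcripts. Healthy stromal cells had 0.287 to 0.993 RPKM of Lif and 0.818 to 3.42 RPKM of Il23a. Neither was called (adjusted p = 0.227 and 0.581), Lif was called without T1CN and T2CN (adjusted p = 0.0242), and Il23a turned to -1.87 without T17CN and T18CN.

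**Figure D4:**
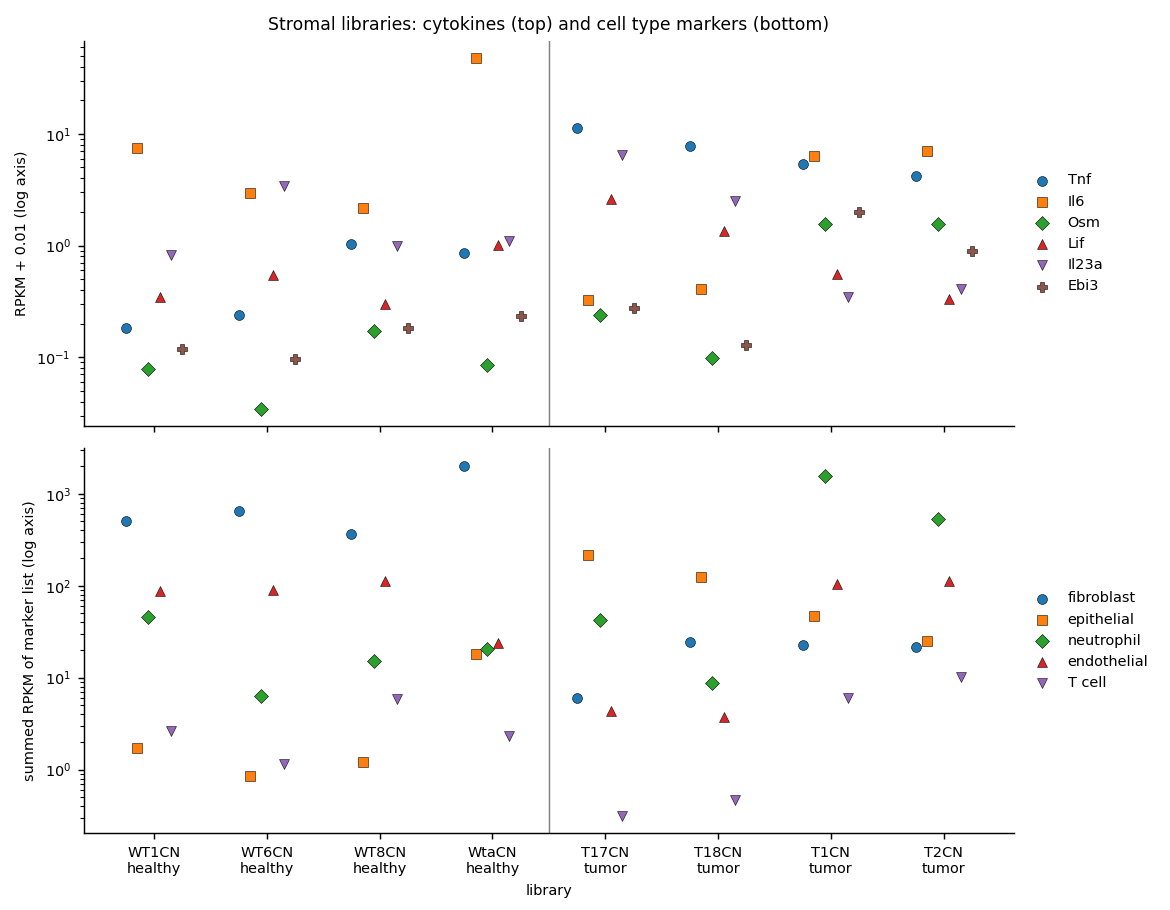
The 6 cytokines Tnf, Il6, Osm, Lif, Il23a and Ebi3 in RPKM + 0.01 (top, log axis) and the summed RPKM of 5 marker lists (bottom, log axis) in the 4 healthy and 4 tumor stromal libraries, a symbol for each gene or list. Fibroblast markers are at 369 to 2027 RPKM in healthy and 6.07 to 24.7 RPKM in tumor libraries, T17CN and T18CN share high epithelial markers, Lif and Il23a, and T1CN and T2CN share high neutrophil and endothelial markers, Il6, Osm and Ebi3.

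The other genes of the pathways were 11 receptors, 8 signal transducers and inhibitors, and 7 related ligands and processing genes. In tumor against blood neutrophils, 3 of the 19 that passed the filter rose and none fell, beside 11.9% of all genes called higher and 16.3% in either direction. In monocytes 5 rose and 2 fell of 19, beside 7.76% and 11.7%. In neutrophils the 3 were the receptors Osmr (4.48 on the log2 scale, standard error 1.10, adjusted p = 0.0182), Il6st (4.13, standard error 0.79, adjusted p = 0.00533) and Tnfrsf1b (2.44, standard error 0.39, adjusted p = 0.00228). Osmr reached a mean of 0.339 RPKM there, against 13.2 RPKM in healthy stromal cells. In monocytes the largest were Clcf1, another ligand of the IL-6 family (4.53, standard error 0.45, adjusted p = 1.0e-04), Osmr (4.47, standard error 0.96, adjusted p = 0.00973, at a mean of 0.0575 RPKM) and Socs3, the feedback inhibitor of gp130 signaling (2.34, standard error 0.31, adjusted p = 6.3e-04).

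The interaction called 3 of these 21 genes tested, beside 3.95% of all genes. The change in monocytes minus that in neutrophils was -4.45 for Il6st (standard error 0.78, adjusted p = 0.00504), -2.20 for Tnfrsf1b (standard error 0.50, adjusted p = 0.0201) and 2.29 for Socs3 (standard error 0.54, adjusted p = 0.0249). Il6st was at 0.0884 RPKM in blood and 1.75 RPKM in tumor neutrophils, and at 7.56 and 4.56 RPKM in the monocytes. With the title number as a block Il6st (-3.62, adjusted p = 0.0193) and Tnfrsf1b (-2.08, adjusted p = 0.0443) were called and Socs3 was not (2.17, adjusted p = 0.131), beside 0.653% of all genes. In blood neutrophils 2 of 19 fell in tumor-bearing mice, beside 4.01% of all genes called in either direction, among them the receptor chain Il12rb2 (-3.22, standard error 0.69, adjusted p = 0.0235), and in blood monocytes 0 of 18 were called by edgeR, beside 0.209%, with 3 at an unadjusted p under 0.05.

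In tumor epithelial cells 3 of 17 pathway genes rose and none fell, beside 7.52% of all genes called higher and 15.4% in either direction. They were Clcf1 (4.54, standard error 1.26, adjusted p = 0.026), Socs3 (3.19, standard error 0.54, adjusted p = 0.00193) and Il6st (2.31, standard error 0.26, adjusted p = 1.7e-04). None of the 22 tested in stromal cells was called by edgeR, beside 8.4% of all genes, with 3 at an unadjusted p under 0.05. Mean levels placed the receptors of the IL-6 family in stroma, with Osmr at 13.2, Lifr at 8.49 and Il6st at 24.9 RPKM in healthy stromal cells, and Il6ra in myeloid cells, at up to 28.7 RPKM in healthy blood monocytes. Il12rb1, a receptor chain that IL-12 and IL-23 share, was at most 0.18 RPKM in any group mean, and Il23r was at 1.39 RPKM in healthy stromal cells and at most 0.133 RPKM elsewhere. Lymphocytes, which are known to carry these receptors, were not among the sorted groups. Healthy stromal libraries nevertheless held lymphocyte markers, with sums of 1.16 to 5.83 RPKM for T cells and 1.35 to 7.42 RPKM for B cells. The part of lymphocytes in the level of Il23r was not tested.

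**Figure D5:**
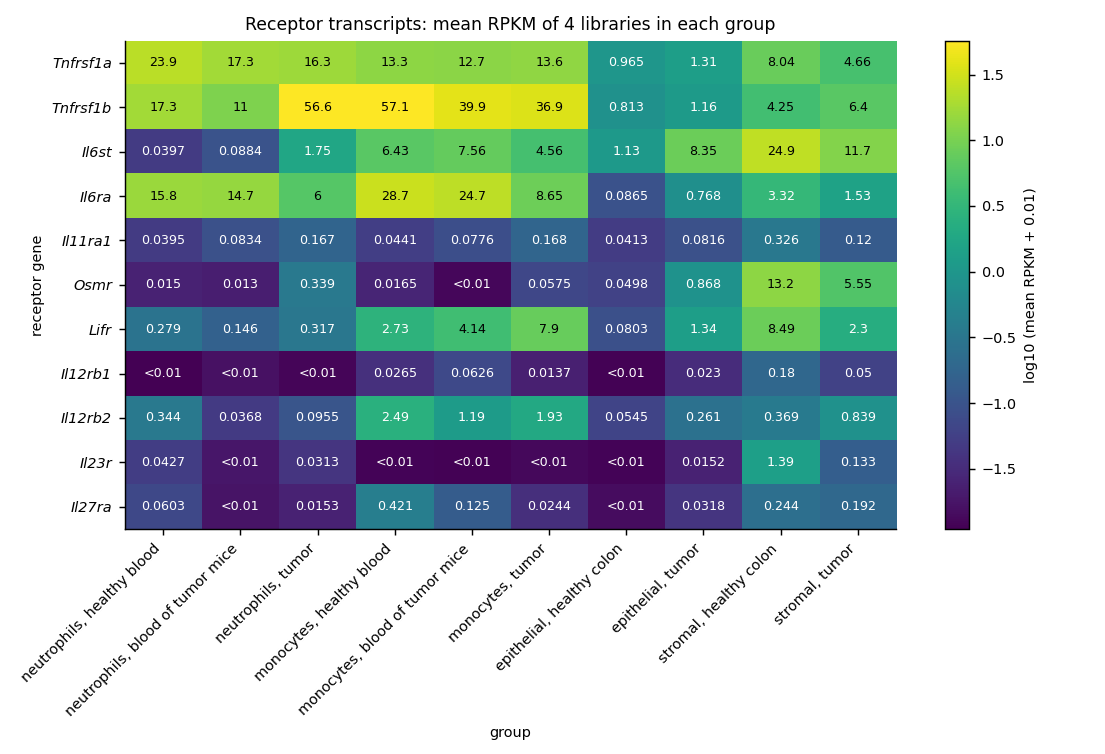
Mean RPKM of 4 libraries for 11 receptor genes in the 10 groups, colored by log10 (mean RPKM + 0.01). Tnfrsf1a, Tnfrsf1b and Il6ra are high in the myeloid columns, Osmr, Lifr and Il6st in healthy stroma, and Il12rb1 is at most 0.18 RPKM throughout.

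Over the 40 libraries, the genes whose pattern was nearest to each member were found by Pearson correlation of log2(RPKM + 0.1) among 13958 genes. These values describe shared patterns over libraries that share groups and depth. Osm was nearest to Clec4e (r = 0.955), C5ar1 and Clec5a, and Ebi3 to Trem3 (0.968), Lcp1 and Gm7823. Among the genes nearest to Il6 were Procr (0.916) and Atp2b4 (0.901), and Lif was nearest to Slc4a11 (0.896), Cxcl16 and Uck2. Tnf was nearest to Spp1 (0.863), Slc7a11 and Smox. Il27 was nearest to Vcpip1 (0.863), Fam241a and Tmem219, Il12a to Gm14023 (0.847), Ell2 and Gm17112, and Il23a to Rela (0.813), Creb5 and Hspa5. No member was among the nearest 3 genes of another.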

How the data were processed

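RNA had been amplified to double-stranded cDNA (NuGEN Ovation V2) from sorted cells, and the authors mapped reads to mm10, with Bowtie2 named in the submitters' processing notes, with counts per Ensembl gene from the HTSstation platform. The annotation release, the handling of reads with several positions and the use of strand are not given in the sources used here. The deposited values are expected counts without normalization, which were rounded because 99.6% of the nonzero values were not whole, and RPKM values made by the authors. The table of the whole series equalled the files of single samples. Totals were 10716847 to 38002110 counts per library, which bounds the precision of low genes. Within groups, squared differences between replicates were 21.5 to 852 times counting error over 60 pairs, for genes with at least 20 counts. The labels do not say that replicates are separate animals, so p-values measure the spread between these libraries.

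Members and lists were chosen with earlier results of these data known. Only the groups compared entered a fit (edgeR 4.0.16, R 4.3.3): filterByExpr, TMM, robust quasi-likelihood test, Benjamini-Hochberg adjustment over all genes tested, and a call at adjusted p under 0.05 with an absolute log2 fold change above 1.5. A standard error is the absolute log2 fold change over the square root of F. Fold changes after TMM and ratios of RPKM can differ. The edgeR step was tested on simulated data with known changes. Alternatives were limma-voom (limma 3.58.1, the study's tool), DESeq2 1.42.0, RLE size factors, no filter, no fold threshold, all 40 libraries, replicate and animal blocks, and leaving out each library, to which fits without T17CN and T18CN and without T1CN and T2CN and an animal block for the interaction, with the number of a pooled library taken as the first in its title, were added after seeing the data. All 10 members are named in every group. Of the other pathway genes, at most the 3 called with the largest change are named per comparison, receptor levels aside, which were chosen after their values were seen. Lists of neighbors used genes with a group mean of at least 1 RPKM. Values of 2 other genes that these rules would name are not reported here.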

Additional observations from a re-analysis of the deposited data

Results flagged for a closer look

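In each of 43 sets of 4 libraries of 1 group and 1 cytokine, with the highest library at 1 RPKM or more, the extreme library was compared with the rest by Dixon's ratio of its gap to the whole range. The ratio passed the 95% critical value for 4 samples in 7 sets, and chance flags about 1 in 20 where values are normally distributed. RPKM values entered without a log and that assumption was not checked, so the 7 sets cannot be read as an excess over chance.

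Tnf was at 4.18 RPKM in replicate 1 of healthy epithelial cells, beside 0.241 to 0.827 RPKM in the other libraries. Il6 was at 47.6 RPKM in replicate 4 of healthy stromal cells, beside 2.14 to 7.39 RPKM. Tumor monocyte replicate 3 stood out by 2 chains, Il12b at 3.22 RPKM beside 0.00438 to 0.117 RPKM, and Ebi3 at 2.41 RPKM beside 1.10 to 1.21 RPKM. Il23a was at 7.50 RPKM in tumor monocyte replicate 4, beside 1.98 to 2.83 RPKM, and at 3.42 RPKM in healthy stromal replicate 2, beside 0.818 to 1.10 RPKM. Ebi3 was at 0.623 RPKM in blood monocyte replicate 2 of healthy mice, a library of 2 pooled animals, beside 3.05 to 3.27 RPKM, and this was the only low extreme of the 7.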

How the results depend on the processing

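Over 71 single-gene results, 1353 alternative values were computed, of which 1180 kept direction and side of the threshold, 129 lost the call, 15 gained it and 29 turned sign. The counts of members called were 4 in tumor against blood neutrophils and 6 in monocytes, within 1.5 times of that in every alternative. In monocytes, Il6 and Il23a both lost the call without tumor monocyte replicate 4 and without blood monocyte replicate 4. In neutrophils, Lif lost it without blood neutrophil replicate 2 or 4. In epithelial cells the count of 1 became 2 with DESeq2 and with all 40 libraries and 3 with limma-voom, and was 1 to 2 without single libraries. In stromal cells the count of 2 became 1 with limma-voom and without the filter and 3 with DESeq2, with all 40 libraries and without T17CN and T18CN, and was 1 to 2 without single libraries. In blood neutrophils it was 0 to 1 without single libraries. The interaction count of 0 became 2 with DESeq2 and 1 with limma-voom, stayed 0 with the title number as a block, and was 0 to 2 without single libraries. The causes of these shifts were not tested.

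Between tumor monocytes and neutrophils the count of 5 became 2 with the animal block, 3 without the filter and 3 with the replicate block, and was 2 to 5 without single libraries. Between tumor monocytes and stromal cells the count of 5 became 3 with RLE size factors, 0 with the animal block, 3 with limma-voom, 2 with the replicate block and 3 without T17CN and T18CN, and was 2 to 5 without single libraries. Between tumor neutrophils and stromal cells the count of 5 became 0 with the animal block. Between tumor stromal and epithelial cells the count of 3 became 1 with limma-voom, 1 with the replicate block, 5 without T17CN and T18CN and 0 without T1CN and T2CN. Both blocks leave fewer degrees of freedom.

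Libraries with 1 replicate number did not pair, since the correlations of their deviations ran from -0.15 to 0.25 and in no comparison exceeded 0.1 for all 4 pairs. With the replicate block the 6 comparisons by tissue kept counts of 4, 6, 0, 0, 1 and 2.

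Some log2 differences turned sign. Il27 in tumor against blood monocytes was 0.00328 with DESeq2 and 0.00435 with RLE size factors. In stromal cells without T17CN and T18CN, Lif was -0.0606, Il12a 0.92 and Il23a -1.87 on the log2 scale. Without single libraries, the log2 difference ran from -0.15 to 1.24 for Osm in tumor against blood neutrophils, from -0.95 to 0.34 for Il27 and from -0.53 to 0.0613 for Ebi3 in monocytes, and from -0.27 to 0.43 for Tnf and from -1.89 to 0.52 for Il23a in blood monocytes. In stromal cells it ran from -2.47 to 0.0614 for Il6, from -1.55 to 0.91 for Il12a and from -0.0545 to 1.70 for Il23a. In the interaction it ran from -0.96 to 0.32 for Tnf, from -0.25 to 4.47 for Il6 and from -0.43 to 1.92 for Lif.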
